A study of Homo sapiens with 6 samples.

Results

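The 36 genes described here make, take up, move, esterify and sense cholesterol. They were selected by gene symbol and Entrez identifier out of the 18030 genes in the authors' tables. The choice was made with earlier results of these data known. All 36 were found in the tables, with 171 RefSeq transcripts between them. They comprise 8 enzymes of the early steps from acetyl-CoA to the isoprenoid diphosphates, 12 enzymes of the squalene and sterol steps, 6 SREBP factors and their partners in the endoplasmic reticulum (ER), 7 proteins of sterol uptake, egress and transfer, and 3 esterification enzymes. The cells were Huh-7, an established human hepatocellular carcinoma line, sequenced as mRNA in 3 libraries with ALKBH5 overexpression (oeALKBH5) and 3 control libraries. ALKBH5 is a demethylase that takes N6-methyladenosine off RNA. The oeALKBH5 cells carried an ALKBH5 plasmid delivered by electroporation (3 pulses of 1250 V for 20 ms), and RNA was collected after 60 h. Controls carry the genotype label WT, and both groups carry the treatment label Untreated and the same electroporation text. Whether the controls were electroporated or given an empty plasmid is not stated in the labels. If they were not, differences due to that handling and to ALKBH5 cannot be told apart here. The libraries are numbered as biological replicates without any mention of separate cultures, so the p-values below speak to variation among these particular libraries, and that variation may be technical.

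Cholesterol synthesis is controlled by the sterol regulatory element binding proteins, SREBF1 and SREBF2, which are made as membrane precursors in the ER and held there with SCAP by the INSIG proteins while sterol is plentiful. When ER sterol falls, SCAP escorts the precursors to the Golgi, where proteases release the transcription factor part. It then enters the nucleus and activates genes of sterol synthesis and uptake, INSIG1 among them, usually together with NF-Y, which binds CCAAT boxes, and Sp1, which binds GC boxes. In hepatocytes the cholesterol so made goes into membranes, lipoproteins, bile acids and esters.

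Promoter sequences are shown for 7 of the genes, which were picked by hand. Whether the sequences bear on the results below was not tested. MVD and MSMO1 (synthesis enzymes), EBP (the sterol enzyme with the highest FPKM), INSIG1 and SREBF2 were lower in oeALKBH5 cells, INSIG2 was higher, and SCAP did not pass the test. Each stretch is the 200 bases before the RefSeq start, on the strand of the gene, from RefSeq on GRCh38.p14. The stretches lie at chr16:88663092-88663291 (MVD, minus strand), chr4:165327469-165327668 (MSMO1, plus), chrX:48521608-48521807 (EBP, plus), chr7:155297678-155297877 (INSIG1, plus), chr22:41832905-41833104 (SREBF2, plus), chr2:118088271-118088470 (INSIG2, plus) and chr3:47475942-47476141 (SCAP, minus). In each of the 7 the gene as bounded by GENCODE release 29 begins inside or upstream of the stretch, so some of these bases may be transcribed from another start. Capitals mark the CCAAT box (CCAAT, or ATTGG on the other strand), the E-box CACGTG, and the classic sterol regulatory element (the longest run of capitals in the SREBF2 stretch). INSIG2 has none of the 3.
MVD: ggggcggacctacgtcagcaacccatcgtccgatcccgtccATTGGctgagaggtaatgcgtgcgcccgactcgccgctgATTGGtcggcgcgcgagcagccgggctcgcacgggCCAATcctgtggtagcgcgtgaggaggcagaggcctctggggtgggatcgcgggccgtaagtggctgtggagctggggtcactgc
MSMO1: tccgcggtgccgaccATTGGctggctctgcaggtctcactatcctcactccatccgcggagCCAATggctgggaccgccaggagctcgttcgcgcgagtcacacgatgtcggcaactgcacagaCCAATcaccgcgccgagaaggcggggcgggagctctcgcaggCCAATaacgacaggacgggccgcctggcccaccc
EBP: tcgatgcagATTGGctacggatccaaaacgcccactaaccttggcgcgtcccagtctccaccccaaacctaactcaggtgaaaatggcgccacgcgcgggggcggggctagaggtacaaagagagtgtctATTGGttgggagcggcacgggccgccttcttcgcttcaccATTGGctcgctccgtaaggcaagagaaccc
INSIG1: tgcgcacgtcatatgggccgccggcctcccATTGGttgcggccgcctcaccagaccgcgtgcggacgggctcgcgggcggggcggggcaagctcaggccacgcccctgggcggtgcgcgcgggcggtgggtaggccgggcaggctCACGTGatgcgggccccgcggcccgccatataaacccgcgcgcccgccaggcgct
SREBF2: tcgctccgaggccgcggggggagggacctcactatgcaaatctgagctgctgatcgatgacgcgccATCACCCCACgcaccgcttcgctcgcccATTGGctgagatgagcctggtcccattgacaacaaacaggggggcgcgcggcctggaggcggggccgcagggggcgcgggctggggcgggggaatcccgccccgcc
INSIG2: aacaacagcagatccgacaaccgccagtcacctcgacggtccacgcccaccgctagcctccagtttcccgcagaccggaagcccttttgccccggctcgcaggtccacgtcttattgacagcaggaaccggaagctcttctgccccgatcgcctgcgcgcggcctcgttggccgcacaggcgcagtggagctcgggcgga
SCAP: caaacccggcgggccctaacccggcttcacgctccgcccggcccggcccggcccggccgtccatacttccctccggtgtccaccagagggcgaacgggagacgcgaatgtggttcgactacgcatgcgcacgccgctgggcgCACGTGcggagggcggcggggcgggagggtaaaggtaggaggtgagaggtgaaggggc

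CCAAT boxes stood in the promoters of most of the genes that were lower. RefSeq promoters, taken as 250 bases before to 50 bases after the start, were matched for 29 of the 36 genes (38 promoters). ACAT2, ERLIN1, FDFT1, LCAT, SCARB1, SOAT2 and SQLE had no entry. CCAAT, searched on both strands, occurred in 63.2% of these promoters (24 of 38) and in 34.6% of all 35116 promoters of the same length. It occurred for 21 of the 24 lower genes with a promoter (all but CYP51A1, SREBF1 and NPC1) and for 1 of the 5 that were not lower, SOAT1. Counted in the same way, it occurred for 4953 of the 11484 tested genes with a promoter. Of the 7 picked stretches, MSMO1 held 4 within its 200 bases, MVD and EBP held 3 each, INSIG1 and SREBF2 held 1 each, and INSIG2 and SCAP held none. The classic sterol regulatory element was found in 1 of the 38 promoters, that of SREBF2, 134 bases before the start, and in 0.0456% of all promoters. The looser TCACNCCAC, which includes that element, was found in the same promoter alone (2.63% of the 38 against 1.13% of all). CACGTG occurred in 13.2% against 7.26% (8.99% of the promoters of tested genes), and the GC box GGGCGG in 86.8% against 45.0% (63.4% of the promoters of tested genes). A match describes letters in this window and is not evidence of a bound site.

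ALKBH5 mRNA was higher in the oeALKBH5 libraries, at 169, 133 and 110 CPM (counts scaled to library size with edgeR's TMM factors) against 70.5, 74.2 and 75.5 (log2 fold change 0.90, SE 0.177, edgeR adjusted p = 0.0154). Leaving out control replicate 2 or 3 ended that call (adjusted p = 0.0529 and 0.0589). Totals ran from 18607084 to 19378030 estimated counts per library. On the second principal component (12.8% of the variance) oeALKBH5 replicate 1 stood apart from the other oeALKBH5 libraries, at 18.21 against -6.29 and -15.03. This library had the lowest of the 3 oeALKBH5 values for 25 of the 36 genes, against 37.4% of all genes tested. All 10 hepatocyte markers were detected and all 10 were lower in oeALKBH5 cells, with summed levels of 20372 to 22256 against 32036 to 32818 CPM. Of markers of other cells, the summed endothelial level was 11.3 to 11.9 against 17.3 to 21.0 CPM (mostly PECAM1, with VWF, CDH5 and KDR below 1 CPM), the fibroblast level 28.8 to 29.1 against 22.3 to 23.8 CPM (DCN below 1 CPM), and the leukocyte level 136 to 160 against 143 to 147 CPM (mostly CD68, with CD3E below 1 CPM). The part of these marker shifts in the results below was not tested. In bulk RNA, fewer cells that express a gene and less RNA per cell cannot be told apart.

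Genes of the cholesterol pathway were lower in oeALKBH5 cells at nearly every step. Of the 36 genes, all of which passed the filter on low counts, 30 were lower and 1, INSIG2, was higher at an edgeR adjusted p under 0.05. Over all 14168 genes tested, 22.0% were lower, 20.8% were higher and 42.8% passed in either direction. The 5 that did not pass were PMVK, LBR, SCAP, SOAT1 and LCAT. The median log2 fold change of the 36 was -0.64, with a range of -1.24 (ACAT2) to 0.50 (INSIG2), and the median of all genes tested was 0.01. The 3 oeALKBH5 libraries all lay below the 3 control libraries for 32 of the 36 genes, where 27.0% of all genes did so. The groups did not overlap in either direction for 33 of the 36, against 52.8% of all genes. Together the 36 genes took 0.371%, 0.385% and 0.388% of all counts in the oeALKBH5 libraries and 0.537%, 0.536% and 0.542% in the controls. The means were 0.381% ± 0.00936 against 0.538% ± 0.00288 (SD, n = 3 each), and the two-sided exact permutation p of 0.1 is the smallest that 3 against 3 allows.

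**Figure D1:**
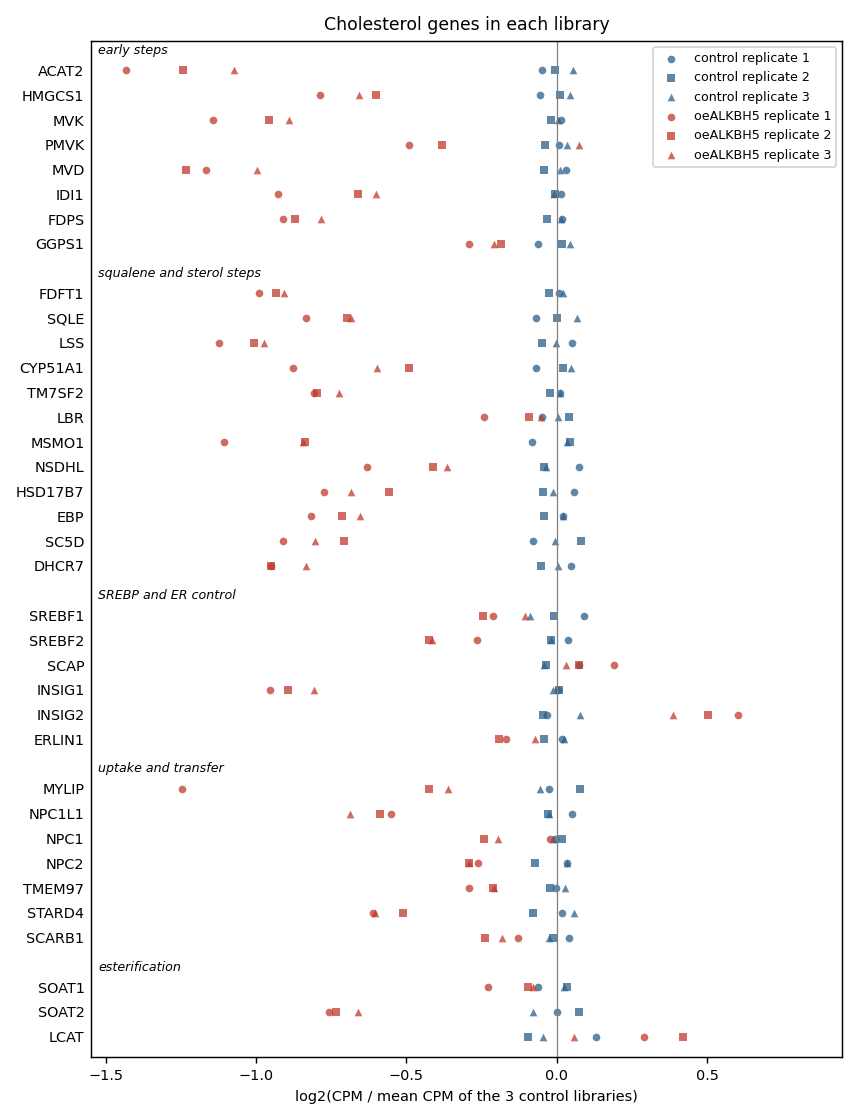
The level of each of the 36 genes in each of the 6 libraries, as log2 CPM minus the mean of the 3 control libraries, grouped by role. All oeALKBH5 points lie left of all control points for 32 genes, and INSIG2 is the gene whose oeALKBH5 points all lie to the right.

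The median fall was larger among the enzymes than among the other genes. Of the 20 synthesis enzymes, 18 were lower and 0 were higher, with a median log2 fold change of -0.76. The only edgeR calls among them were downward, and the 2 at an adjusted p above 0.05 were PMVK (0.123) and LBR (0.0592), both with negative estimates. Of the 16 control, transport and esterification genes, 12 were lower and 1 was higher, with a median of -0.21. Over all genes tested, 22.0% were lower and 20.8% higher. With library size alone the split of the 16 was 8 lower and 3 higher (median -0.13), and that of the 20 enzymes stayed at 18 and 0. The difference between the medians of the 20 and of the 16 was not tested.

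The early steps build isoprenoid diphosphates from acetyl-CoA. Of their 8 genes 7 were lower, against 22.0% of all genes tested (median log2 fold change of the 8, -0.79). ACAT2, the cytosolic thiolase that joins acetyl-CoA units, fell most of all 36. It lies on chromosome 6 at 159760328 to 159779055 (plus strand, GRCh38, GENCODE release 29). Its level was 79.7, 90.9 and 102 CPM in the oeALKBH5 libraries and 208, 214 and 223 CPM in the controls. Every oeALKBH5 library held under 50% of every control (means 91.0 ± 11.3 and 215 ± 7.58, SD, n = 3 each). The change was 2.37-fold (log2 fold change -1.24, SE 0.0716, edgeR adjusted p = 1.58e-08). Part of its exon sequence is shared on the opposite strand with SOD2 (1141 bases, log2 fold change 0.15) and TCP1 (397 bases, -0.22). Strand use in counting is not given in the sources used here, so reads of overlapping genes cannot be told apart.

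HMGCS1, which makes HMG-CoA, held 337, 383 and 369 CPM against 560, 587 and 600 CPM (log2 fold change -0.68). MVK, the kinase that phosphorylates mevalonate, held 30.8, 35.0 and 36.7 CPM against 68.8, 67.2 and 68.3 CPM (-0.99, adjusted p = 1.50e-10). The 2 groups did not overlap for either gene. MVK shares 306 exon bases on the opposite strand with MMAB, which was itself lower at -1.06. PMVK, which adds the next phosphate, was the exception among these steps. Its level was 15.5, 16.8 and 23.0 CPM against 21.9, 21.2 and 22.3 CPM, with oeALKBH5 replicate 3 above every control and the other two below them. The estimate was -0.25 (SE 0.12, edgeR adjusted p = 0.123), and without oeALKBH5 replicate 3 it was -0.43 (adjusted p = 0.00015).

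MVD, the decarboxylase that makes isopentenyl diphosphate, lies on chromosome 16 at 88651935 to 88663161 (minus strand). It held 85.0, 81.1 and 95.5 CPM in oeALKBH5 cells and 195, 185 and 192 CPM in control cells, so that all oeALKBH5 libraries lay near the same level, far under the controls. It fell 2.19-fold (log2 fold change -1.13, SE 0.0554, edgeR adjusted p = 4.65e-12). Its promoter, printed above, holds 3 CCAAT boxes. IDI1, the isomerase of isopentenyl diphosphate, held 70.0, 84.1 and 87.8 CPM against 134, 133 and 132 CPM (-0.72). FDPS, which makes farnesyl diphosphate, held 198, 203 and 216 CPM against 377, 363 and 376 CPM (-0.85). FDPS has 8 annotated pseudogenes, and reads shared with them could be divided differently by the authors' counting. GGPS1, which leads away from sterols to geranylgeranyl diphosphate, differed least of the genes that were lower in this group. It held 45.4, 48.9 and 48.1 CPM against 53.2, 56.2 and 57.3 CPM (-0.23, SE 0.0558, adjusted p = 0.00264). GGPS1 shares 1422 exon bases with TBCE on the same strand, which was lower at -0.54.

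The squalene and sterol steps commit farnesyl diphosphate to cholesterol. Of their 12 genes 11 were lower (median -0.76), against 22.0% of all genes tested. FDFT1, squalene synthase, held 143, 148 and 151 CPM against 284, 278 and 287 CPM, close to a doubling in every control (log2 fold change -0.94, SE 0.0451, edgeR adjusted p = 3.15e-12). SQLE, squalene epoxidase, held 59.0, 64.9 and 65.5 CPM against 100, 105 and 110 CPM (-0.74). LSS, which closes the ring to lanosterol, held 82.2, 89.2 and 91.3 CPM against 186, 173 and 179 CPM (-1.03, SE 0.051, adjusted p = 4.65e-12). No oeALKBH5 library overlapped a control for these 3 genes. ACAT2, MVD and LSS were the 3 of the 36 that passed with a change of at least 2-fold, as 303 of all genes tested did.

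CYP51A1, the lanosterol demethylase, varied more between libraries, at 82.9, 108 and 101 CPM against 145, 154 and 157 CPM (-0.65, SE 0.0819, adjusted p = 9.35e-05). It has 3 annotated pseudogenes. The next reduction can be done by TM7SF2 or by LBR, which also anchors chromatin at the nuclear envelope, and they differed. TM7SF2 held 31.0, 31.2 and 32.9 CPM against 54.7, 53.4 and 54.7 CPM (-0.77). LBR held 107, 118 and 122 CPM against 122, 130 and 127 CPM, without overlap but close, and its estimate of -0.13 (SE 0.0528) did not pass (edgeR adjusted p = 0.0592). It passed with transcript length as an offset (-0.16, adjusted p = 0.0182) and without oeALKBH5 replicate 3 (-0.16, 0.0145).

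MSMO1, which removes the C4 methyl groups, held 94.0, 113 and 113 CPM against 191, 209 and 207 CPM (-0.92). Its partners in this removal moved less: NSDHL held 23.3, 27.1 and 28.1 CPM against 38.0, 35.1 and 35.2 CPM (-0.46). HSD17B7 held 10.1, 11.7 and 10.7 CPM against 17.9, 16.7 and 17.1 CPM (-0.67), and 2 pseudogenes of it are annotated. The 3 late enzymes, EBP (the sterol isomerase), SC5D (the desaturase) and DHCR7 (a reductase of the last steps), were lower in every oeALKBH5 library. EBP held 232, 249 and 259 CPM against 415, 396 and 414 CPM (-0.73). SC5D held 37.5, 43.1 and 40.3 CPM against 66.6, 74.5 and 70.2 CPM (-0.81). DHCR7 held 213, 214 and 231 CPM against 426, 397 and 414 CPM (-0.91, SE 0.0479, adjusted p = 1.10e-11).

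Levels scaled for transcript length, in the authors' FPKM, ordered the genes by abundance. In control cells EBP was highest at 369 ± 7.48 FPKM and FDPS next at 298 ± 4.56 (SD, n = 3 each). DHCR7 followed at 155 ± 4.38, then ACAT2 at 142 ± 5.49, SCARB1 at 140 ± 2.89, FDFT1 at 135 ± 2.07 and HMGCS1 at 128 ± 4.94. ACAT2 and SCARB1 lay within each other's spread. At the low end stood STARD4 at 4.41 ± 0.241, INSIG2 at 2.88 ± 0.238 and MYLIP at 1.80 ± 0.143 FPKM. In oeALKBH5 cells EBP and FDPS still led, at 235 ± 12.5 and 173 ± 7.05 FPKM. SCARB1 came next at 131 ± 4.83, and ACAT2, at 63.3 ± 7.54, then stood below DHCR7, HMGCS1, TMEM97, NPC2 and FDFT1.

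**Figure D2:**
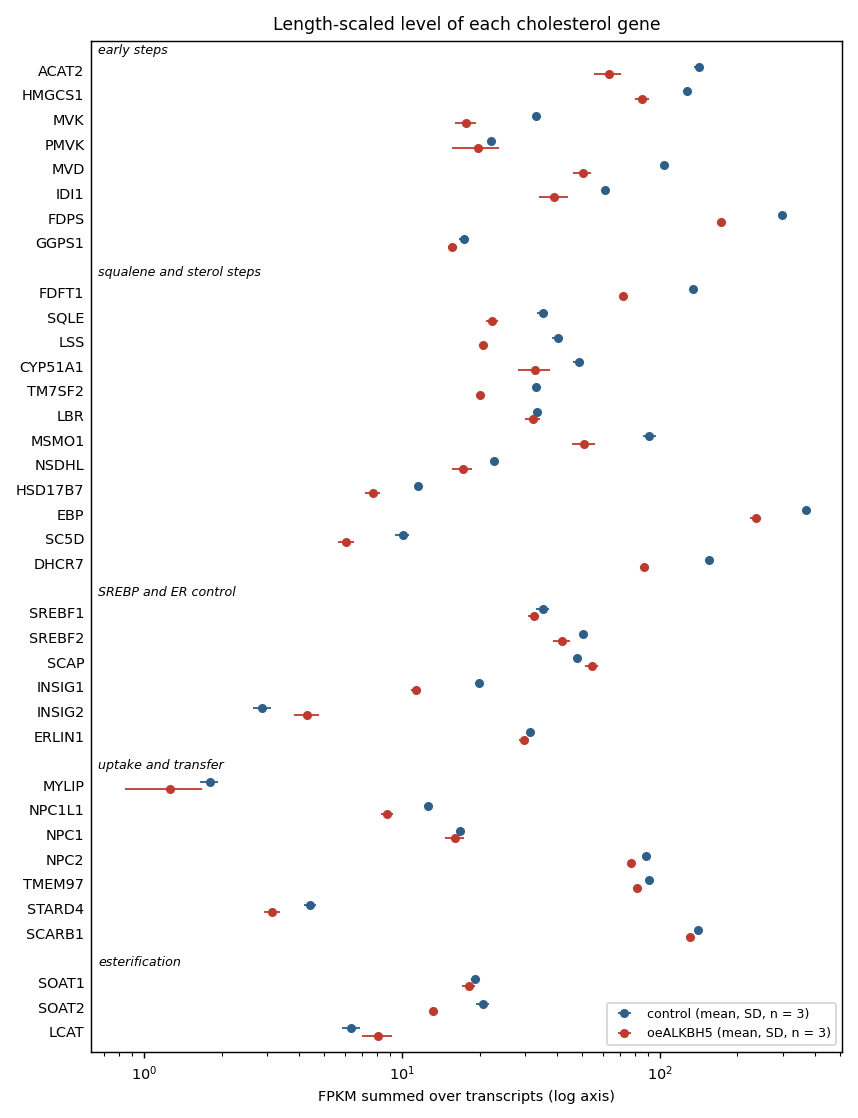
Gene-summed FPKM of the 36 genes on a log10 axis, with the mean and SD of the 3 libraries of each group. EBP and FDPS are the highest in both groups, and MYLIP is the lowest, at 1.80 FPKM in control cells.

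Among the SREBP factors and their ER control, INSIG1 and INSIG2 moved in opposite directions. INSIG1, on chromosome 7 at 155297776 to 155310235, held 30.4, 31.7 and 33.6 CPM in oeALKBH5 cells and 59.0, 59.2 and 58.4 CPM in controls (log2 fold change -0.88, SE 0.0573, edgeR adjusted p = 3.14e-10). INSIG2, on chromosome 2 at 118088452 to 118110997, held 12.0, 11.2 and 10.3 CPM against 7.74, 7.65 and 8.33 CPM (0.50, SE 0.101, adjusted p = 5.01e-04). Neither gene's groups overlapped, and both calls held whichever library was left out. The log2 ratio of INSIG1 to INSIG2 in FPKM was 1.24, 1.33 and 1.66 in the oeALKBH5 libraries and 2.87, 2.85 and 2.65 in the controls. The means were 1.41 ± 0.224 and 2.79 ± 0.125 (SD, n = 3 each), a difference of -1.38. The exact permutation p was 0.1, the smallest possible here, and 0.2 after adjustment over the 4 ratios examined.

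The estimates for the SREBP factors were smaller than the enzyme medians, a difference that was not tested. SREBF2, the form best known for sterol synthesis, held 220, 197 and 199 CPM against 271, 261 and 261 CPM (-0.37, SE 0.0493, edgeR adjusted p = 7.02e-06). SREBF1, the form best known for fatty acid synthesis, held 136, 133 and 147 CPM against 168, 157 and 149 CPM (-0.19, SE 0.0532, adjusted p = 0.00768). The highest oeALKBH5 value of SREBF1 lay just under the lowest control, and it no longer passed without control replicate 1 (adjusted p = 0.0686) or oeALKBH5 replicate 2 (0.0584). SREBF1 also shares 556 exon bases with RAI1 on the opposite strand, which was higher at 0.36. The log2 FPKM ratio of SREBF1 to SREBF2 differed by 0.16 with overlapping groups (exact permutation p = 0.2, n = 3 each).

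SCAP, the escort, held 229, 211 and 205 CPM against 211, 196 and 195 CPM, with overlapping groups (0.10, SE 0.0509, edgeR adjusted p = 0.121), and it passed as higher without oeALKBH5 replicate 3 (0.14, adjusted p = 0.0274). ERLIN1, an ER lipid raft protein that takes part in the removal of INSIG1, held 89.3, 88.0 and 95.5 CPM against 102, 97.5 and 102 CPM (-0.14, adjusted p = 0.0244). The ERLIN1 groups came within a few percent of each other, and its call was lost without control replicate 1 (0.0768), control replicate 3 (0.101) or oeALKBH5 replicate 2 (0.126). In this group of 6 genes, 4 were lower and 1 was higher (22.0% and 20.8% over all genes tested), with a median of -0.17. With library size alone the split was 2 lower and 2 higher, with a median of -0.09.

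**Figure D3:**
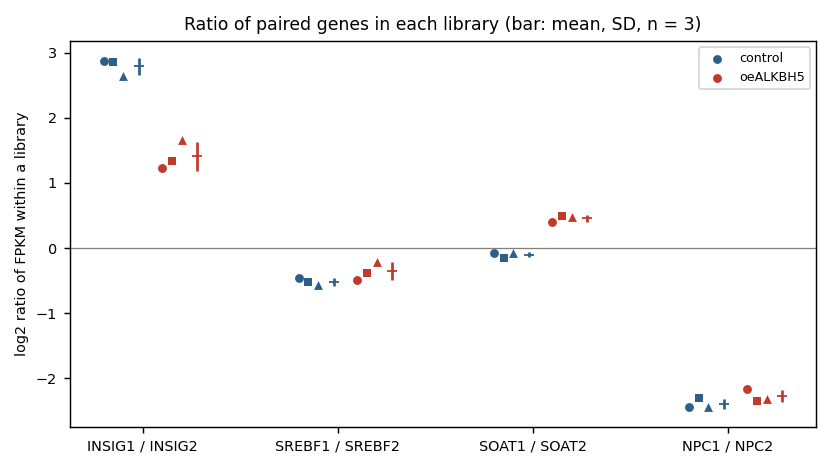
The log2 ratio of gene-summed FPKM within each library for 4 pairs of related genes, with the group means. The groups do not overlap for INSIG1 to INSIG2 (difference -1.38) and SOAT1 to SOAT2 (0.56), and they overlap for SREBF1 to SREBF2 and NPC1 to NPC2.

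All 7 genes of uptake, egress and transfer were lower, against 22.0% of all genes tested. Most of them fell by less than the enzymes (median -0.28). With library size alone 5 of the 7 were lower, and 6 were lower with the length offset or by DESeq2. NPC1L1, the transporter that takes in free cholesterol, held 42.1, 41.1 and 38.3 CPM against 64.0, 60.5 and 60.7 CPM (-0.61, SE 0.0565, edgeR adjusted p = 5.57e-08). STARD4, a soluble carrier of sterol between membranes, held 11.9, 12.7 and 11.9 CPM against 18.3, 17.2 and 18.8 CPM (-0.57, adjusted p = 1.24e-05). Both were clear of the controls in every library. MYLIP, a ubiquitin ligase that targets lipoprotein receptors for degradation and is a classic LXR target, held 2.23, 3.94 and 4.12 CPM against 5.21, 5.60 and 5.10 CPM (-0.63, SE 0.179, adjusted p = 0.00887). The low value of oeALKBH5 replicate 1 carries much of that size, and without it the estimate was -0.39 (adjusted p at most 0.0409 in any fit with a library left out).

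NPC1 and NPC2 pass cholesterol out of the late endosome and lysosome. NPC2, the soluble partner, held 60.1, 58.9 and 58.8 CPM against 73.7, 68.5 and 73.7 CPM (-0.28, SE 0.052, edgeR adjusted p = 2.25e-04). With transcript length as an offset the NPC2 estimate was -0.10 (adjusted p = 0.12). NPC1, the membrane partner, held 81.0, 69.6 and 71.9 CPM against 82.0, 83.4 and 81.7 CPM, with oeALKBH5 replicate 1 almost at the controls (-0.15, adjusted p = 0.0359). The NPC1 call was lost in 5 of 6 fits with a library left out, all but the one without oeALKBH5 replicate 1 (adjusted p of 0.0814, 0.111 and 0.0773 without control replicates 1, 2 and 3, and 0.217 and 0.0857 without oeALKBH5 replicates 2 and 3), and by DESeq2 (0.0714). The log2 FPKM ratio of NPC1 to NPC2 differed by 0.12 with overlapping groups (exact permutation p = 0.3, n = 3 each). TMEM97, a sterol-responsive ER protein that binds NPC1, held 186, 196 and 197 CPM against 227, 224 and 231 CPM (-0.24). SCARB1, the receptor for high-density lipoprotein, was the most abundant of the uptake genes at 439, 407 and 423 CPM against 493, 475 and 471 CPM (-0.18, adjusted p = 0.00283). TMEM97 shares 361 exon bases with IFT20, and NPC1 shares 604 with RMC1, each on the opposite strand, and neither partner passed the test.

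The 3 esterification genes differed from each other. SOAT2, the cholesterol acyltransferase of hepatocytes and enterocytes, held 25.4, 25.8 and 27.1 CPM against 43.0, 45.2 and 40.6 CPM (-0.72, SE 0.0636, edgeR adjusted p = 2.82e-08). SOAT1, the acyltransferase found in most tissues, held 52.4, 57.5 and 58.3 CPM against 58.9, 63.0 and 62.6 CPM (-0.13, SE 0.0563, adjusted p = 0.0621). Both sat below the controls in all oeALKBH5 libraries, SOAT1 by a narrow margin, and SOAT1 passed as lower without oeALKBH5 replicate 3 (-0.16, adjusted p = 0.0319). The log2 FPKM ratio of SOAT1 to SOAT2 was 0.40, 0.50 and 0.48 in oeALKBH5 libraries and -0.08, -0.15 and -0.08 in controls. In control cells SOAT2 was thus a little above SOAT1 per length, and in oeALKBH5 cells SOAT1 was above SOAT2. The difference was 0.56 (exact permutation p = 0.1, n = 3 each, 0.2 adjusted over 4 ratios). LCAT, the secreted enzyme that esterifies cholesterol in lipoproteins, held 11.6, 12.7 and 9.86 CPM against 10.4, 8.87 and 9.18 CPM, with overlapping groups (0.26, SE 0.107, adjusted p = 0.0527). LCAT passed as higher under several other settings, among them without control replicate 1 (adjusted p = 0.0463) and without oeALKBH5 replicate 3 (0.00821), and it shares 336 exon bases with SLC12A4, itself higher at 0.24.

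Several of the smaller falls depended on the scaling. With library size alone, without TMM factors, the median of all genes moved to 0.09 and the split of all genes went from 3114 lower and 2948 higher to 2047 lower and 4266 higher. Of the 36 genes, 26 were then lower and 3 higher (INSIG2, SCAP and LCAT), and SREBF1 (adjusted p = 0.0954), ERLIN1 (0.289), NPC1 (0.318) and SCARB1 (0.0538) no longer passed. With transcript length as an offset, 31 were lower, LBR and SOAT1 now among them and NPC2 not, and 2 were higher (INSIG2 and LCAT). DESeq2 called 29 lower and 1 higher. In the FPKM readout, tested with limma on log2(FPKM + 1), 25 of the 36 were lower and 3 higher (INSIG2, SCAP and LCAT), against 16.5% and 29.4% of the 12016 genes tested (45.9% in either direction), and all 25 were also lower by edgeR. The median of the 36 on that scale, which understates the change of low genes, was -0.50, and that of all genes was 0.06. GGPS1, SREBF1, ERLIN1, NPC1 and SCARB1 were lower by edgeR and did not pass in FPKM.

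**Figure D4:**
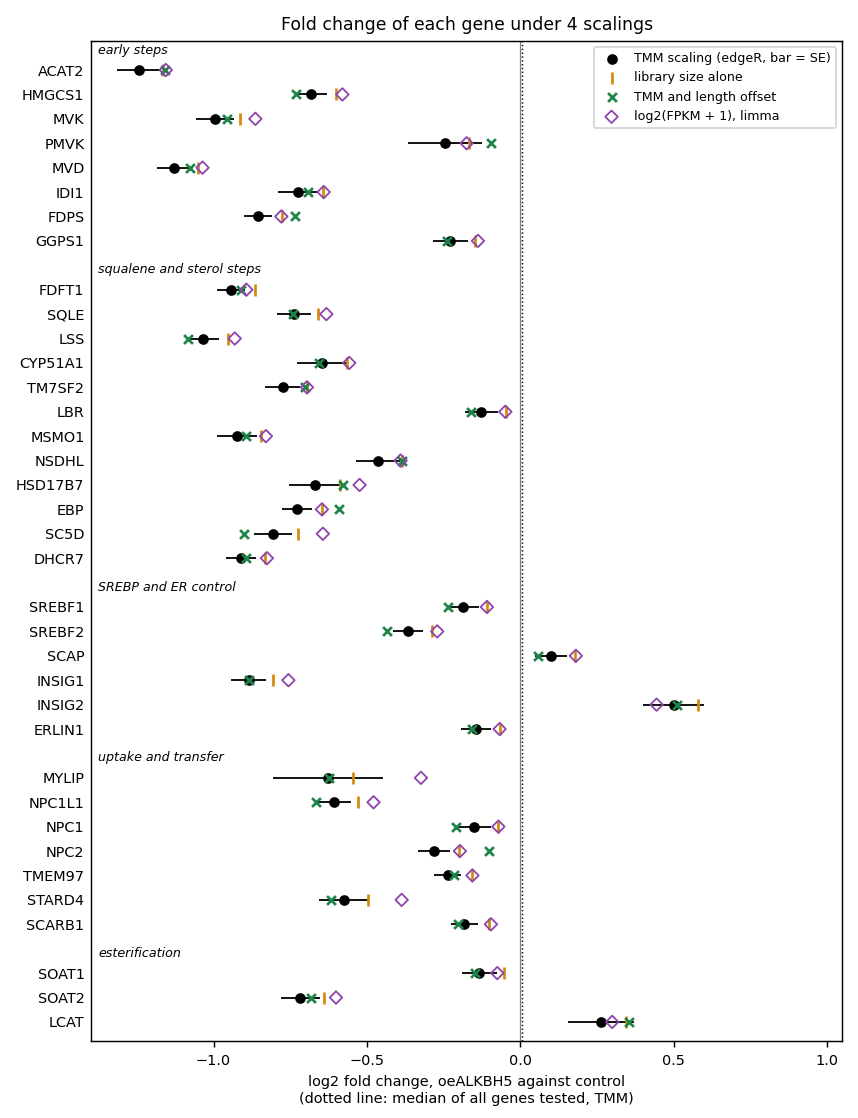
The log2 fold change of each of the 36 genes under 4 scalings: edgeR with TMM (bar, SE), library size alone, TMM with a length offset, and limma on log2(FPKM + 1). The enzymes other than PMVK, GGPS1 and LBR stay below -0.3 under all 4, and INSIG2 stays above 0.4.

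At the level of transcripts fewer calls were made. Of the 171 transcripts 129 passed the filter, and 17 from 16 genes were lower and 0 higher by edgeR, against 0.732% and 0.281% of all 45502 transcripts tested (1.01% in either direction). At an unadjusted p under 0.05, 1 was higher. For EBP (NM_006579.3), SOAT2 (NM_003578.4), SQLE (NM_003129.4) and SC5D (NM_006918.5) a single transcript held over 90% of the counts in both groups, with log2 fold changes of -0.72, -0.71, -0.75 and -0.79 in that order. MVD was lower in both NM_002461.3 (-1.09) and XM_011523086.2 (-1.17). The number of lower transcripts depended on each library. It was 3, 1 and 0 without control replicates 1, 2 and 3, and 10, 3 and 8 without oeALKBH5 replicates 1, 2 and 3. The division of reads between transcripts is itself an estimate whose error is not in the test.

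Shares of transcripts are given for FDFT1, SREBF1 and NSDHL, which were picked after their values were seen. Of the 58 transcripts with at least 10% of a gene with more than 1 tested transcript, 9 from 5 genes had shares that did not overlap between groups, against 14.8% of all such transcripts. That count is near the background, so the shares below are a description and not a result about these genes. For FDFT1, NM_004462.5 made up 64.9%, 56.5% and 64.1% of the gene's counts in oeALKBH5 libraries and 82.7%, 77.8% and 82.1% in controls. Its own level fell by more than the gene's (log2 fold change -1.33, SE 0.0668, edgeR adjusted p = 0.0047, against -0.94). NM_001287743.1 made up 22.8% ± 5.49 against 13.4% ± 2.35, and NM_001287750.1 10.2% ± 1.13 against 2.57% ± 0.66 (SD, n = 3 each), and neither passed as a transcript. For SREBF1, NM_004176.4 made up 14.5%, 26.9% and 12.7% against 6.47%, 11.1% and 4.39%, and NM_001321096.3 12.1%, 18.4% and 21.5% against 26.8%, 28.8% and 26.0%. The main SREBF1 transcript, XM_024450893.1, overlapped between groups at 50.1% ± 6.16 against 54.7% ± 4.62. For NSDHL, NM_001129765.1 made up 55.8% ± 6.81 against 29.1% ± 11.0, while XM_017029564.1 made up 28.8% ± 6.67 against 49.2% ± 15.0. No SREBF1 or NSDHL transcript passed the edgeR test.

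**Figure D5:**
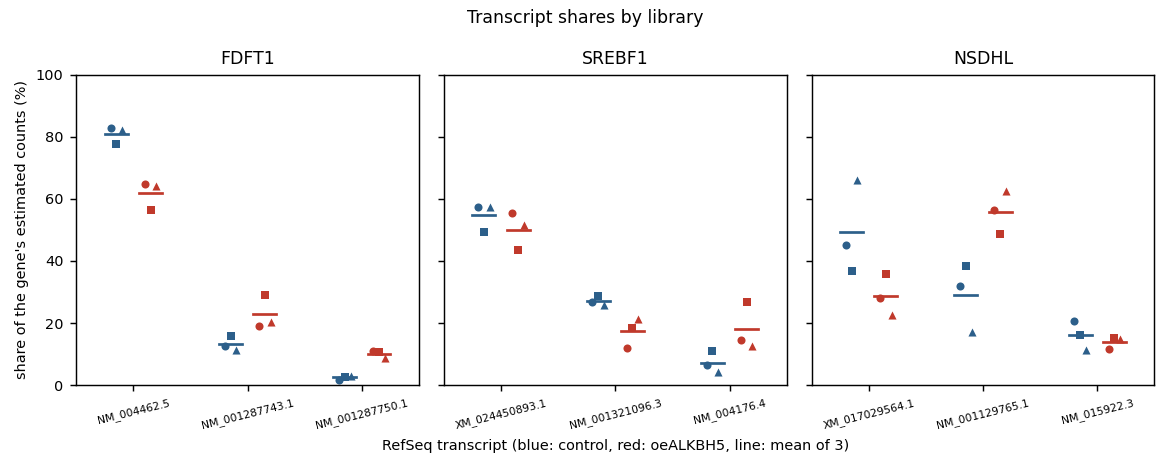
The share of each gene's estimated counts held by its main transcripts in each of the 6 libraries. For FDFT1 the share of NM_004462.5 is 56.5% to 64.9% in oeALKBH5 libraries and 77.8% to 82.7% in controls.

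Genes around the pathway were read from 6 further lists. Acetyl-CoA supply and fatty acid genes that SREBP controls were lower in 13 of 13 (median -0.62), against 22.0% of all genes tested. ACSS2, which makes acetyl-CoA from acetate, held 29.6, 32.9 and 31.7 CPM against 80.8, 77.2 and 79.0 CPM (-1.33, edgeR adjusted p = 6.20e-13), and SCD, the stearoyl-CoA desaturase, was at -0.94. The 3 oeALKBH5 libraries lay below the controls for all 13 genes, where 27.0% of all genes tested did so. Of 17 genes of SREBP proteolysis, ER exit and degradation, 5 were lower and 1 was higher (median -0.07), beside 22.0% lower and 20.8% higher over all genes tested. The split was 1 lower and 3 higher with library size alone, and 8 lower and 1 higher with the length offset. RNF145, a sterol-responsive ubiquitin ligase that acts on SCAP, was the higher one, at 27.5, 28.2 and 29.5 CPM against 18.7, 19.2 and 20.1 CPM (0.56, adjusted p = 2.55e-06). ERLIN2, the partner of ERLIN1, was at -0.34 and SEC23A, a coat protein of ER exit, at -0.17, and the latter was lost with library size alone (adjusted p = 0.0862).

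Of the endocytic uptake and transport genes, 4 of 14 were lower and 3 higher, which is near the 22.0% and 20.8% of all genes. VLDLR, a lipoprotein receptor, held 17.0, 13.4 and 13.6 CPM against 9.03, 8.18 and 9.29 CPM (0.73, edgeR adjusted p = 1.49e-05). LIPA, the lysosomal lipase that frees cholesterol from esters, held 45.7, 46.8 and 48.2 CPM against 84.2, 85.3 and 87.1 CPM (-0.87, adjusted p = 6.59e-11). Both were separate from the controls in all libraries. SORT1 was at 0.20, lost with the length offset (adjusted p = 0.102), and VPS35 was at -0.27. Of the 9 tested LXR factors and targets, 5 were lower and 1 was higher, a split that was 2 and 2 with library size alone and 5 and 2 with the length offset (22.0% and 20.8% over all genes). The lower ones included LPCAT3 at -0.33 and SMPDL3A at -0.37. RXRB, at 0.16 (adjusted p = 0.0357), lost its call without control replicates 2 (0.118) or 3 (0.131), without oeALKBH5 replicates 2 (0.0521) or 3 (0.087), and by DESeq2 (0.0987).

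Isoprenoid-using genes of prenylation, dolichol and ubiquinone were lower in 4 of 15 and higher in 0 (median -0.08), beside 22.0% and 20.8% of all genes. With library size alone they were lower in 0 and higher in 1. ZMPSTE24, a protease of prenylated proteins, was at -0.21 and was lost without control replicate 3 (adjusted p = 0.0579). COQ2, of ubiquinone synthesis, was at -0.25 and was lost without control replicate 2 (0.0883), control replicate 3 (0.0711) or oeALKBH5 replicate 1 (0.0911). Of 4 tested genes of sterol catabolism and oxysterols, 2 were lower, CYP27A1 at -0.35 and AKR1D1 at -0.30, and HSD3B7 was higher at 0.27 (edgeR adjusted p = 0.00621).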

How the data were processed

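The authors deposited estimated counts and FPKM per RefSeq transcript (80668 transcripts, 18030 genes). HISAT2 2.1.0, Bowtie2 2.2.5, RSEM 1.2.8 and GRCh38.p13 are named per the submitters' processing notes; what each did, any filters and the strand setting are not stated there. Estimated counts were summed by Entrez gene and rounded. Symbols were matched for 17881 genes, and the other 149 held 0.0264% of counts. All 6 pairs of libraries within a group differed by more than counting noise.

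All genes were tested with edgeR 4.0.16 (R 4.3.3; TMM, minimum count 10, robust quasi-likelihood, two-sided, Benjamini-Hochberg, threshold 0.05). Transcripts were tested likewise. The deposited FPKM, summed by gene, were tested with limma 3.58.1 on log2(FPKM + 1) for genes with at least 1 FPKM in 3 libraries. DESeq2 1.42.0 was an alternative. The length offset used a lowess span of 0.3. Ratios of 4 gene pairs had exact permutation tests. Scripts were tested on simulated data.

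All 36 genes were named, plus up to 2 genes per direction, by p, in each further list. Only some of the transcripts that passed or held at least 10% of a gene were named. The genes and lists were chosen with earlier results of these data known. Coordinates are from GENCODE release 29 on GRCh38, and promoters from RefSeq on GRCh38.p14.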

Additional observations from a re-analysis of the deposited data

How the results depend on the processing

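With library size alone, 2047 genes were lower. Of the 36 genes, the number called higher was 2 with upper quartile scaling, with the length offset and with a CPM of at least 1 in 3 libraries, and 3 with the replicate number as a block or with library size alone. Under that replicate block the number of their transcripts called lower was 0. Same-numbered libraries did not deviate together (correlations of -0.02, 0.02 and -0.01), and the numbers were treated as names and not as pairs. With 3 libraries per group, this check cannot settle whether same-numbered libraries were prepared together. With each library left out in turn, 27 to 32 of the 36 were lower and 1 to 3 higher, 0 to 10 transcripts were lower, and the median log2 fold change ran from -0.71 to -0.59. The difference in log2 ratio ran from -1.50 to -1.29 for INSIG1 to INSIG2, 0.54 to 0.59 for SOAT1 to SOAT2, 0.09 to 0.23 for SREBF1 to SREBF2 and 0.07 to 0.17 for NPC1 to NPC2. None of the 36 genes, ALKBH5 or the genes named from the further lists changed direction under any alternative run. Causes of these shifts were not tested. MYLIP had the lowest CPM of the 36 in both groups, and depth limits such genes.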
